A study of Mus musculus with 2 samples.

Results

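Neuropeptide Y (Npy) and its receptors Npy1r, Npy2r and Npy5r were followed on 4 arrays of mouse hypothalamus. These 4 of the 21441 named genes on the arrays were found by gene symbol or older synonym among the non-control spots. The system was chosen on measured values, with the diet ratios of Npy from earlier results of these arrays known. All values below are therefore descriptions, with no test. Each gene had 1 probe with 1 spot, and all 4 probes were well above background on all 4 arrays.

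The groups were mice of the bezafibrate diet at zeitgeber time 10 (ZT10, 10 h after lights on), control mice at ZT10, mice of the bezafibrate diet at ZT22, and control mice at ZT22. Bezafibrate is a fibrate drug that activates PPARα, a nuclear receptor that responds to fatty acids. Per the labels, mice aged 8 weeks were kept on normal feed for 2 weeks, then had bezafibrate at 0.5% of the feed over 2 weeks and went back to normal feed for 5 weeks. The labels do not settle at which stage the brains were taken, and name neither the strain nor the controls' own feed schedule. A block of brain holding the hypothalamus was taken, RNA of 4 mice was pooled per group, and 400 ng of total RNA was labelled with Cy3 for 1 array per pool. There was 1 array per group, so no spread between mice or between pools could be estimated, and no p-value is given. Each ± gives the error that the scanner software assigned to the spots, and it covers neither. For bright spots this error was close to a fixed share of the signal, so it is a scale and not a measured spread. Between repeat spots of a probe on 1 array, the median SD of the log2 signal was 0.083 to 0.093, depending on the array.

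Neuropeptide Y is a peptide transmitter that stimulates feeding when released in the hypothalamus. In the arcuate nucleus it is made by neurons that also make agouti-related peptide (Agrp) and GABA, whose activity increases in fasting, and it is also made by interneurons of the cortex and striatum. The receptors couple to inhibitory G proteins. Y1 (Npy1r) and Y5 (Npy5r) mediate much of the feeding response, while Y2 (Npy2r) acts largely as a presynaptic receptor that restrains release of the peptide.

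In the RefSeq annotation of assembly GRCm38.p6, Npy lies on chromosome 6 at 49822710 to 49829507 on the plus strand. Npy2r lies on chromosome 3 at 82538383 to 82548989 on the minus strand. Npy5r (chromosome 8, 66679965 to 66688094, minus strand) and Npy1r (chromosome 8, 66697149 to 66706800, plus strand) are neighbours, with 9054 bases between them, and are read in opposite directions. Promoter windows of 3 genes are shown, each the 250 bases before the start site that RefSeq's promoter table uses, 5′ to 3′ on the strand of the gene. For Npy1r, and for Npy2r among the windows searched, that site lies inside the annotated gene, so the window lies within the annotated span. The Npy window (chr6:49822460-49822709) belongs to the gene whose signal differed between the diets, and the Npy1r (chr8:66697172-66697421) and Npy5r (chr8:66688095-66688344) windows to the neighbouring receptor pair. Capitals mark motif matches.
Npy: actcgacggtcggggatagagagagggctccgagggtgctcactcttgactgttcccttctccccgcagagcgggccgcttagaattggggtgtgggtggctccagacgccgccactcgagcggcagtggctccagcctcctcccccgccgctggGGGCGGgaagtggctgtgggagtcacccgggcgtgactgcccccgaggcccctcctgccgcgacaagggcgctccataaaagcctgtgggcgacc
Npy1r: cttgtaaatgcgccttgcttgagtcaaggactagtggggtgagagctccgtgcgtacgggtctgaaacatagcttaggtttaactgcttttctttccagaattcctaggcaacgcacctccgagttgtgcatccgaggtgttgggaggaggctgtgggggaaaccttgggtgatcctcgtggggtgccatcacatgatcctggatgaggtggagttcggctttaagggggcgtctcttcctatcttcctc
Npy5r: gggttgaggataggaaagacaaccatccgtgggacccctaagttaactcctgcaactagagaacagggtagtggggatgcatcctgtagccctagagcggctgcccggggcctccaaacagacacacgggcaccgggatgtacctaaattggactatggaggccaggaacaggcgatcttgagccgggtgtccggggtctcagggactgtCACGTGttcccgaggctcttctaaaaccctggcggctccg

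The windows of all 4 genes were searched on both strands for the TATA box TATAAA, the GC box GGGCGG, the cAMP response element TGACGTCA, the E-box CACGTG, the nuclear receptor hexamer AGGTCA, the forkhead motif GTAAACA and the STAT motif TTCNNNGAA. The Npy window held 1 GC box, starting 95 bases before the start site, and the Npy2r window held 1, at 62 bases. The Npy5r window held 1 E-box, at 40 bases, and the Npy1r window held no match. Of 32851 promoter windows of the same length, 32.7% held the GC box and 6.02% the E-box. The hexamer was in 14.0% of all windows, and a DR1 element (a pair of such hexamers 1 base apart, the arrangement bound by PPAR dimers) in 0.0335%, and neither was in these 4 windows. A match is a description of the letters and not a binding site. The Npy window was 69.2% G or C, against a median of 52.4% over all windows.

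Npy had the higher signal in the bezafibrate pool at both times. The processed signal of its probe was 2580 ± 258 intensity units in the bezafibrate pool at ZT10, against 1510 ± 151 in the control pool at ZT10. It was 2640 ± 264 in the bezafibrate pool at ZT22, against 1250 ± 125 in the control pool at ZT22. Both bezafibrate pools lay above both control pools. The same held for the spots before any correction, whose median was 52.3 times the local background in the bezafibrate pool at ZT10, against 29.2 times in its control. At ZT22 the factor was 52.3 in the bezafibrate pool and 24.4 in the control pool.

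Signals were divided by the 75th percentile of each array, which was 1050 and 1010 units for bezafibrate and control at ZT10 and 893 and 1010 units at ZT22. On this scale Npy was at 2.46 ± 0.25 in the bezafibrate pool and 1.495 ± 0.15 in the control pool at ZT10. At ZT22 it was at 2.96 ± 0.30 in the bezafibrate pool and 1.24 ± 0.12 in the control pool. The diet ratio was 1.64-fold at ZT10 (log2 0.72 ± 0.20) and 2.39-fold at ZT22 (log2 1.26 ± 0.20). In bulk tissue, more cells that make the peptide and more RNA per cell cannot be told apart.

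**Figure D1:**
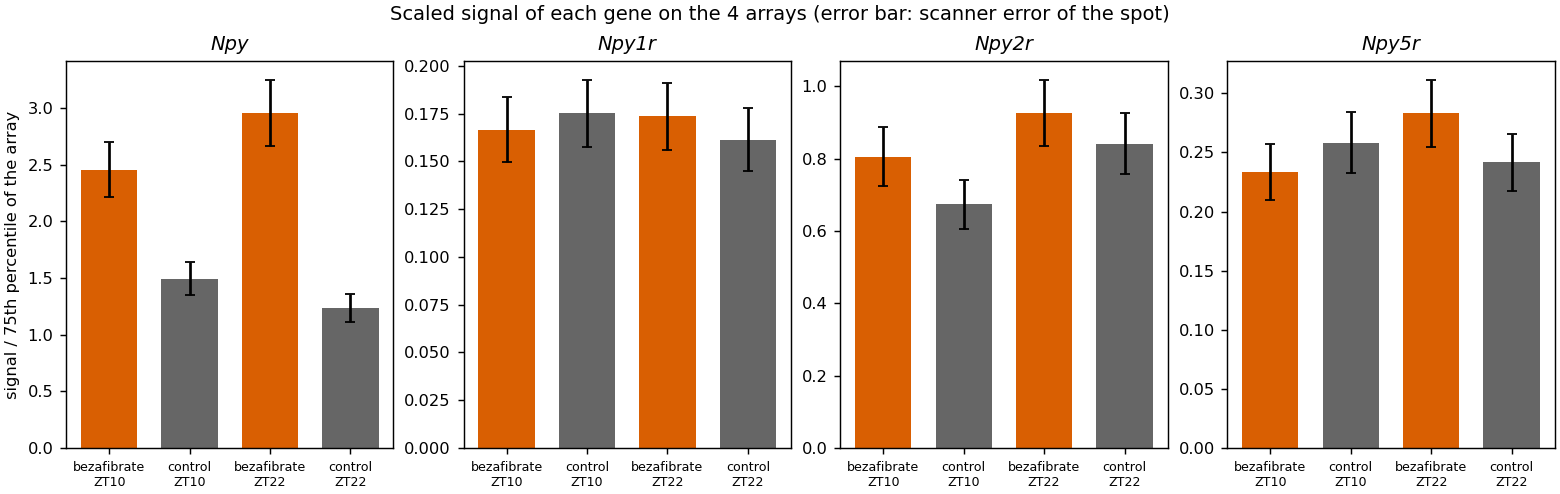
Signal of Npy, Npy1r, Npy2r and Npy5r divided by the 75th percentile of each array (y axis, from 0, a separate scale for each gene), for the bezafibrate (orange) and control (grey) pools at ZT10 and ZT22, 1 array per bar. Error bars are the scanner error of the spot. Npy stands at 2.46 and 2.96 in the bezafibrate pools and at 1.495 and 1.24 in the control pools, while the highest and lowest bars are 1.09-fold apart for Npy1r, 1.38-fold for Npy2r and 1.21-fold for Npy5r.

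The 2 times were then compared within each diet. In bezafibrate mice the Npy level at ZT22 was 1.20 times that at ZT10 (log2 0.27 ± 0.20), and in control mice it was 0.828 times that at ZT10 (log2 -0.27 ± 0.20). Both changes were of about 1.3 scanner errors. The diet ratio at ZT22 minus that at ZT10 was 0.54 ± 0.29 on the log2 scale, 1.87 scanner errors, which was not tested for want of replicates. The range over the 4 arrays was 2.39-fold, larger than the range of 98.5% of the 15912 genes above background on all arrays, for which the median range was 1.15-fold.

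Set against all genes above background on both arrays, Npy ranked 118 from the highest of 16110 genes at ZT10 and 35 of 16207 at ZT22. At ZT10, the share of all genes past 1.5-fold was 1.06% for genes higher with bezafibrate and 1.38% for genes lower. Of the 4 genes of the system, 1 (Npy) was in the first class and 0 in the second. At ZT22 these shares were 1.29% and 1.9%, and again 1 of the 4 (Npy) and 0 of the 4 were in these classes. Since Npy was chosen on these contrasts, nothing is read from its count. Across both times, 13 of 15912 genes (0.0817%) were at least 1.5-fold higher, and Npy was the 7th of them by its smaller ratio.

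Most ratios past 1.5-fold came from dim probes. When only genes averaging 100 units or more over the arrays were counted, 46 of 13101 (0.351%) were at least 1.5-fold higher at ZT10 and 77 of 13100 (0.588%) at ZT22. In this brighter set Npy ranked 26 and 9 from the highest. Of 13099 brighter genes above background on all 4 arrays, 5 were at least 1.5-fold higher at both times and 8 at least 1.5-fold lower. The 5 were Agrp, Npy, Trim55, Depp1 and Amy2, of which Depp1 was picked out after its values were seen. Trim55 had a dimmer probe above background at -0.45 and -0.01, so its place rests on 1 probe.

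The spots around the Npy spot did not share its ratio. Over the spots above background within 5 rows and 5 columns, the median log2 ratio was 0.03 at ZT10 (81 spots) and 0.03 at ZT22 (79 spots). All 4 arrays were on 1 slide, where the bezafibrate pools took positions 4 and 3 and the control pools positions 2 and 1, at ZT10 and ZT22 in that order. Diet and side of the slide cannot be told apart.

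Npy1r, the Y1 receptor through which the peptide acts on postsynaptic neurons, had nearly the same signal on every array. It was 175 ± 18 units in the bezafibrate pool at ZT10, against 177 ± 17.8 in its control, and 155 ± 15.8 in the bezafibrate pool at ZT22, against 163 ± 16.7 in its control. The diet log2 ratio was -0.07 ± 0.21 at ZT10 and 0.11 ± 0.21 at ZT22. An interval of 2 scanner errors ran from -0.49 to 0.34 at ZT10 and from -0.31 to 0.52 at ZT22. The bezafibrate and control values overlapped, and the range over the 4 arrays was 1.09-fold.

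Npy2r, the Y2 autoreceptor, had the widest range of the receptors. Its signal was 846 ± 84.6 units in the bezafibrate pool at ZT10, against 680 ± 68 in its control, and 827 ± 82.7 in the bezafibrate pool at ZT22, against 849 ± 85 in its control. After scaling the diet log2 ratio was 0.26 ± 0.20 at ZT10 and 0.14 ± 0.20 at ZT22. The bezafibrate value at ZT22 was the highest of the 4, at 0.926 of the 75th percentile, and the control value at ZT10 the lowest, at 0.673. The control value at ZT22 (0.841) lay above the bezafibrate value at ZT10 (0.806), so the diets overlapped. After scaling, Npy2r was higher at ZT22 than at ZT10 in both diets, by 0.20 ± 0.20 in bezafibrate mice and 0.32 ± 0.20 in control mice on the log2 scale. In bezafibrate mice the direction depends on the scaling, since the signal before it was 827 units at ZT22 and 846 at ZT10.

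Npy5r, the Y5 receptor of the neighbouring locus, was measured at 245 ± 24.8 units in the bezafibrate pool at ZT10, against 261 ± 26.2 in its control. At ZT22 it was 253 ± 25.4 in the bezafibrate pool, against 244 ± 24.7 in its control. The diet log2 ratio was -0.15 ± 0.21 at ZT10 and 0.23 ± 0.21 at ZT22. Their difference, 0.38 ± 0.29, was 1.30 scanner errors. The lowest and the highest of the 4 values were both bezafibrate pools, so the diets overlapped here too. At ZT22 relative to ZT10, the log2 ratio was 0.28 ± 0.21 in bezafibrate mice and -0.10 ± 0.21 in control mice.

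Across the 3 receptors the largest diet difference was 1.20-fold at ZT10 (Npy2r) and 1.17-fold at ZT22 (Npy5r). The largest time difference was 1.21-fold in bezafibrate mice (Npy5r) and 1.25-fold in control mice (Npy2r). The range over the 4 arrays exceeded that of 22.2% of genes for Npy1r, 85.8% for Npy2r and 67.7% for Npy5r. None of the 3 was 1.5-fold apart in any of the 4 comparisons. Between the times, 2.03% of genes were at least 1.5-fold higher and 1.57% lower at ZT22 in bezafibrate mice, and 2.51% and 2.06% in control mice, and 0 of the 4 genes of the system were in any of these classes. With 1 array per group these values do not show that receptor transcripts were alike between the diets.

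**Figure D2:**
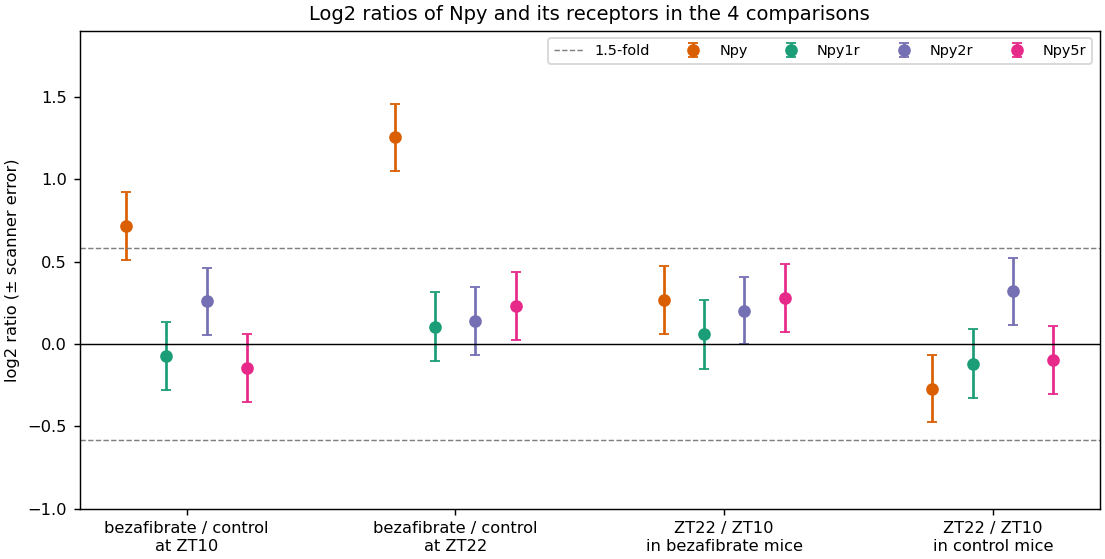
Log2 ratio (y axis) of Npy, Npy1r, Npy2r and Npy5r in the 4 comparisons (x axis), each with its scanner error as the bar; dashed lines mark 1.5-fold. Only the diet ratios of Npy, 0.72 at ZT10 and 1.26 at ZT22, lie past the line, and the receptors lie between -0.15 and 0.32.

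**Figure D3:**
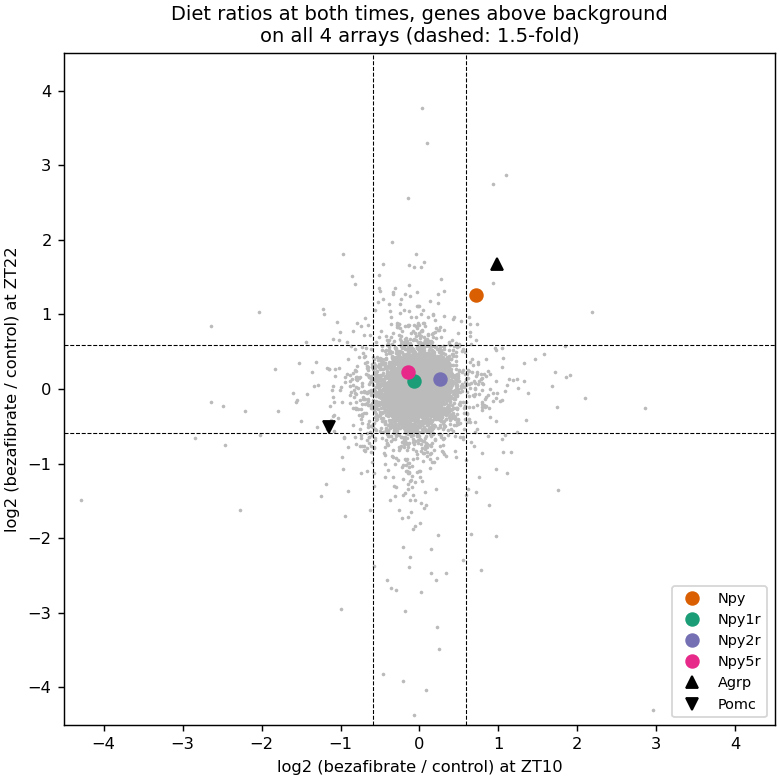
Log2 ratio of bezafibrate over control at ZT10 (x axis) and at ZT22 (y axis) for the 15912 genes above background on all 4 arrays (grey), with the members, Agrp and Pomc marked. Dashed lines mark 1.5-fold. Npy and Agrp lie in the upper right, and the receptors lie within the bulk of the genes.

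The authors' deposited table of ratios gave values of the same direction. That table closely follows the ratios of these same arrays, and its direction was used to check the diet of each file. The shared direction is therefore no independent support. In the authors' deposited table Npy was at 1.554 at ZT10 and 2.271 at ZT22. The receptors in the authors' deposited table were at 0.897 and 1.025 (Npy1r), 1.125 and 1.046 (Npy2r) and 0.851 and 1.112 (Npy5r) at the same times.

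Agrp, an antagonist of melanocortin receptors made by the same arcuate neurons, had signals of 1310 and 1350 units in the bezafibrate pools at ZT10 and ZT22, against 639 and 477 in the control pools. Its diet log2 ratios were 0.98 ± 0.20 and 1.68 ± 0.20. Of 8 genes listed as marks of these neurons, 6 were above background on all 4 arrays, and of these 6 Agrp alone was at least 1.5-fold higher at either time. The GABA genes of these neurons, which many other neurons also express, had diet log2 ratios of 0.12 and 0.09 (Gad1), 0.10 and 0.04 (Gad2) and 0.10 and -0.06 (Slc32a1) at ZT10 and ZT22. Acvr1c, an activin-type receptor, was at -0.48 and 0.33, and Corin, a serine protease that limits agouti signalling in hair follicles, at 0.22 and -0.29. Bsx, a homeobox factor needed for Npy and Agrp expression, was not well above background on any array. Otp, a homeobox factor of hypothalamic neurons, was above it only in the bezafibrate pool at ZT22. Its signal there was 27.1 units, against 3.25 in the control pool. After scaling, the bezafibrate value was 2.55-fold the lowest signal well above background on the control array. The scanner error of the log2 ratio between these 2 pools was 1.45. Over the 6 genes the median was 0.11 at ZT10 and 0.07 at ZT22, against 0.01 at each time for all genes. Their summed scaled signal, carried mostly by Slc32a1, was 144.4 in the bezafibrate pool and 134.4 in the control pool at ZT10, and 149.7 and 152.5 at ZT22.

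Genes of the other arcuate neurons lay on both sides of no difference. Pomc, from which the satiety peptide α-MSH is cut, had diet log2 ratios of -1.15 ± 0.20 and -0.51 ± 0.20 at ZT10 and ZT22, and Cartpt, another satiety peptide precursor, -0.36 ± 0.20 and -0.19 ± 0.20. The other Cartpt probe, also above background on all 4 arrays, was at -0.48 and -0.02. Kiss1, a regulator of reproduction, was at -0.43 and -0.55. The dopamine transporter Slc6a3 was at 0.71 and 0.08, growth hormone releasing hormone (Ghrh) at -0.14 and 0.45, and the transcription factor Tbx3 at 0.06 and 0.33. Of the 11 genes on this list, 8 were lower in the bezafibrate pool at ZT10 and 7 at ZT22, with medians of -0.12 and -0.14. The summed signal was 52.3 in the bezafibrate pool and 66.1 in the control pool at ZT10, and 61.9 and 71.1 at ZT22.

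The profile over the 4 arrays was compared between Npy and 15911 other genes, by the root mean square difference of log2 signals after centring each gene on its own mean. The 10 closest genes with a usable symbol were Amy2 (0.107), Agrp (0.179), Fabp4 (0.192), Trim55 (0.196), Crym (0.209), Melk (0.223), Lrp1b (0.233), Epgn (0.234), Pramel39 (0.234) and Map2k3os (0.242). Amy2, a pancreatic amylase, had diet log2 ratios of 0.63 ± 0.21 at ZT10 and 0.97 ± 0.22 at ZT22. Fabp4 carries fatty acids in adipocytes and macrophages, and Melk is a kinase of dividing cells. Crym, a thyroid hormone binding protein, was at 0.32 ± 0.20 and 0.97 ± 0.20. For Trim55 and Lrp1b another probe above background was at -0.45 and -0.01 and at -0.33 and -0.28, so the likeness rests on 1 of their probes. Fabp4, Melk, Lrp1b, Epgn and Pramel39 had mean signals of 19.5 to 43.8 units, where the scanner error of a ratio was 0.24 to 0.34. Likeness over 4 arrays that share a slide is a description.

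**Figure D4:**
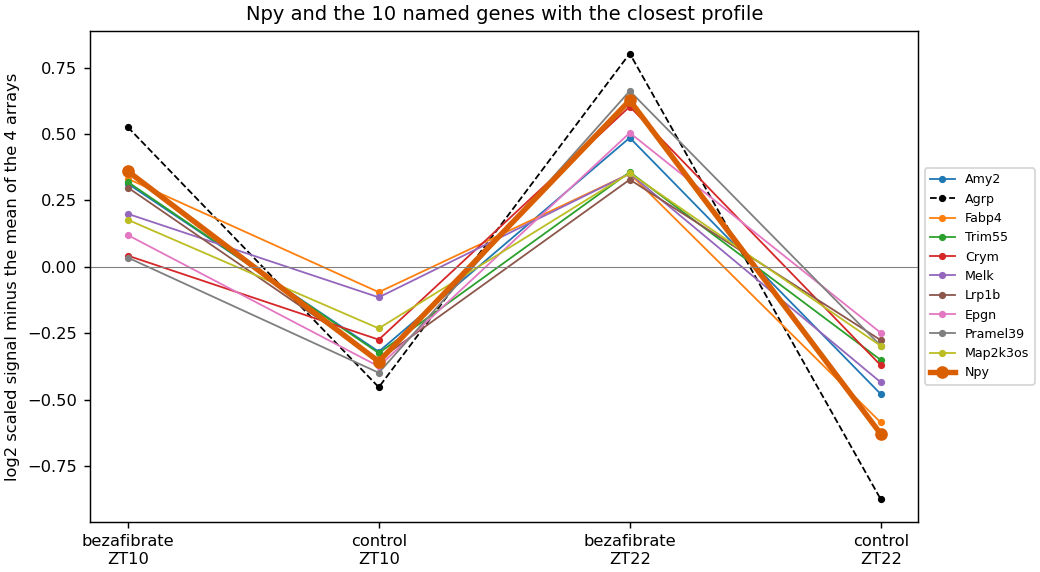
Log2 scaled signal minus the mean of the 4 arrays (y axis) on each array (x axis) for Npy (thick orange), Agrp (dashed black) and the other 9 named genes with the closest profile, 1 point per array. All 11 lines are above their own mean in both bezafibrate pools and below it in both control pools; these genes were selected for that likeness.

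The other ligands and receptors of the family were measured at low signal. Peptide YY (Pyy), a gut hormone that acts on the same receptors, had 2 probes above background. The brighter was at 106 and 76 units in the bezafibrate pools at ZT10 and ZT22 and at 93.5 and 81.5 in the control pools, with diet log2 ratios of 0.12 ± 0.21 and 0.08 ± 0.22. The other Pyy probe was at 0.37 ± 0.28 and -0.26 ± 0.26. Npy4r, the receptor preferred by pancreatic polypeptide and named Ppyr1 in the files, was at 34.9 and 38 units in the bezafibrate pools and 44.4 and 34.7 in the control pools, with ratios of -0.40 ± 0.27 and 0.31 ± 0.26. Pancreatic polypeptide (Ppy) and Npy6r were not well above background on any array, so no fold is given.

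Enzymes that process the Npy precursor showed no ratio past 1.5-fold between the diets. The prohormone convertases were at -0.18 and -0.12 (Pcsk1) and -0.18 and 0.04 (Pcsk2), and carboxypeptidase E (Cpe), which trims basic residues, at 0.03 and -0.05, at ZT10 and ZT22. The convertase chaperone Scg5 was at -0.15 and -0.02 and the convertase inhibitor Pcsk1n at 0.05 and 0.08. Pam, which amidates the carboxyl end of the peptide, was at -0.25 ± 0.20 and 0.26 ± 0.20, and it was 0.90 ± 0.20 lower on the log2 scale at ZT22 than at ZT10 in control mice. The other 2 Pam probes above background gave 0.18 and -0.33 for that last comparison. For diet at ZT10 and ZT22, the brighter of these 2 was at 0.19 and -0.21 and the dimmer at -0.12 and 0.37. The Pam probes thus disagreed in the sign of the diet ratio. The median of the 6 genes was -0.16 at ZT10 and 0.01 at ZT22.

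Of 5 peptidases that cleave the mature peptide or similar peptides, 3 were above background on all 4 arrays. Dpp4, which removes the first 2 residues and so changes receptor preference, was at -0.47 ± 0.25 and 0.18 ± 0.25 with signals of 31.2 to 41.7 units. Prep was at -0.05 and -0.01 and Mme (neprilysin) at 0.08 and -0.04, while Fap and Xpnpep2 were each above background on 2 arrays. All 11 genes of receptor signalling (inhibitory G protein subunits, GIRK channels, arrestins and Rgs4) were above background and within 1.5-fold, with medians of 0.00 and -0.03 and a range from -0.24 to 0.09 at ZT10 and from -0.15 to 0.05 at ZT22.

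Of 12 genes for signals known to act on these neurons, 10 were above background on all 4 arrays, with medians of 0.03 at ZT10 and -0.02 at ZT22. Ghsr, the ghrelin receptor, was the one past 1.5-fold. Its signal was 37.4 and 70.2 units in the bezafibrate pools at ZT10 and ZT22, against 37.5 and 189 in the control pools, a diet log2 ratio of -0.06 at ZT10 and -1.25 at ZT22. A dimmer Ghsr probe, also above background on all 4 arrays, was at -0.23 and 0.35, so the probes disagreed at ZT22. The insulin receptor Insr was at 0.03 and 0.17, Foxo1 at 0.14 and 0.07 and Socs3, which restrains leptin signalling, at -0.28 and -0.17. Of the 2 leptin receptor probes, 1 was well above background on 1 array and the other on none, and no probe was named for Irs2. The 6 housekeeping genes measured had medians of -0.07 and 0.08 and lay between -0.27 and 0.23.

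The pools differed in genes of neighbouring tissues. Of the 12 hypothalamus genes, 11 had a probe and all 11 were above background on all 4 arrays. Their median diet log2 ratio was -0.15 at ZT10 and 0.04 at ZT22, and their summed signal was 223.1 in the bezafibrate pool and 256.5 in the control pool at ZT10, and 269 and 267.6 at ZT22. All 8 genes of interneurons of cortex and striatum, some of which make Npy, were above background, with medians of -0.11 and 0.02 and summed signals of 45.2 and 44.9 (bezafibrate and control) at ZT10 and 49.9 and 45.5 at ZT22. Sst carried most of these sums (31.7 and 26.8 at ZT22) and was at 0.06 and 0.24, while Nos1 was at -0.13 and -0.08. At ZT22, 4 of the 8 genes were higher in the bezafibrate pool and 4 lower.

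All 10 striatal genes were above background. They had a median of -0.05 at ZT10, with 1 of 10 higher in the bezafibrate pool, and 0.47 at ZT22, with 10 of 10 higher and 4 past 1.5-fold. Their summed signal was 74.2 in the bezafibrate pool and 75.05 in the control pool at ZT10, and 94.3 and 68.9 at ZT22. Penk, at -0.01 and 0.44, carried most of each sum. Of 9 genes of cortex and hippocampus, 8 were above background, with medians of -0.05 and -0.04 and summed signals of 28.6 and 27.7 at ZT10 and 36.1 and 31.6 at ZT22. At ZT10, 3 of the 8 were higher in the bezafibrate pool and 5 lower. Among the lower, Neurod2 was at -1.55, but its dimmer probe, also above background on all 4 arrays, was at -0.50. Slc17a7, at 27.6 against 71.5 units, was at -1.43. All 6 thalamic genes were lower in the bezafibrate pool at ZT10 and 5 of 6 at ZT22, with medians of -0.55 and -0.27 and summed signals of 6.95 and 9.60 at ZT10 and 7.55 and 8.46 at ZT22. Their part in the Npy ratio was not tested.

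Of 10 choroid plexus genes, 8 were above background on all 4 arrays, with medians of -0.06 at ZT10 and 1.09 at ZT22, where 6 were at least 1.5-fold higher and transthyretin (Ttr) was at 3.76. Their summed signal was 5.93 in the bezafibrate pool and 6.20 in the control pool at ZT10, and 9.57 and 7.28 at ZT22. Clic6, at -0.06 and -0.02, carried most of each sum. Folr1, 1 of the 6 choroid plexus genes past 1.5-fold, was at 1.30 at ZT22. Its dimmer probe, also above background on all 4 arrays, was at -0.25. Over all genes, 1.29% were at least 1.5-fold higher at ZT22. Of 11 pituitary genes, 6 were above background on all 4 arrays, with medians of -0.26 and 0.31. Their summed signals, carried mostly by Cga, were 3.51 and 5.16 at ZT10 and 6.20 and 4.58 at ZT22. These values leave out Prl and Gh, each above background on 3 arrays. Of the 6, Tshb was at 1.35 at ZT22, but its dimmer probe, also above background on all 4 arrays, was at -0.09. Pou1f1 and Gnrhr, which define pituitary cells, were not above background on any array. The Prl signal was 17.7 and 2.41 units in the bezafibrate pools at ZT10 and ZT22, against 380 and 59.2 in the control pools. The Gh signal was 15.9 and 9.25 units in the bezafibrate pools, against 201 and 63.9 in the control pools. The 9 oligodendrocyte genes had medians of -0.04 and -0.36, all 9 lower at ZT22, and summed signals of 243.4 and 245 at ZT10 and 223.1 and 256.9 at ZT22. The 7 tanycyte genes had medians of -0.23 and -0.06, with Rax (0.87) and Dio2 (0.65) past 1.5-fold at ZT22, and summed signals of 5.86 and 6.15 at ZT10 and 6.24 and 6.08 at ZT22. The part of these tissues in the ratios of the Npy system was not tested.

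**Figure D5:**
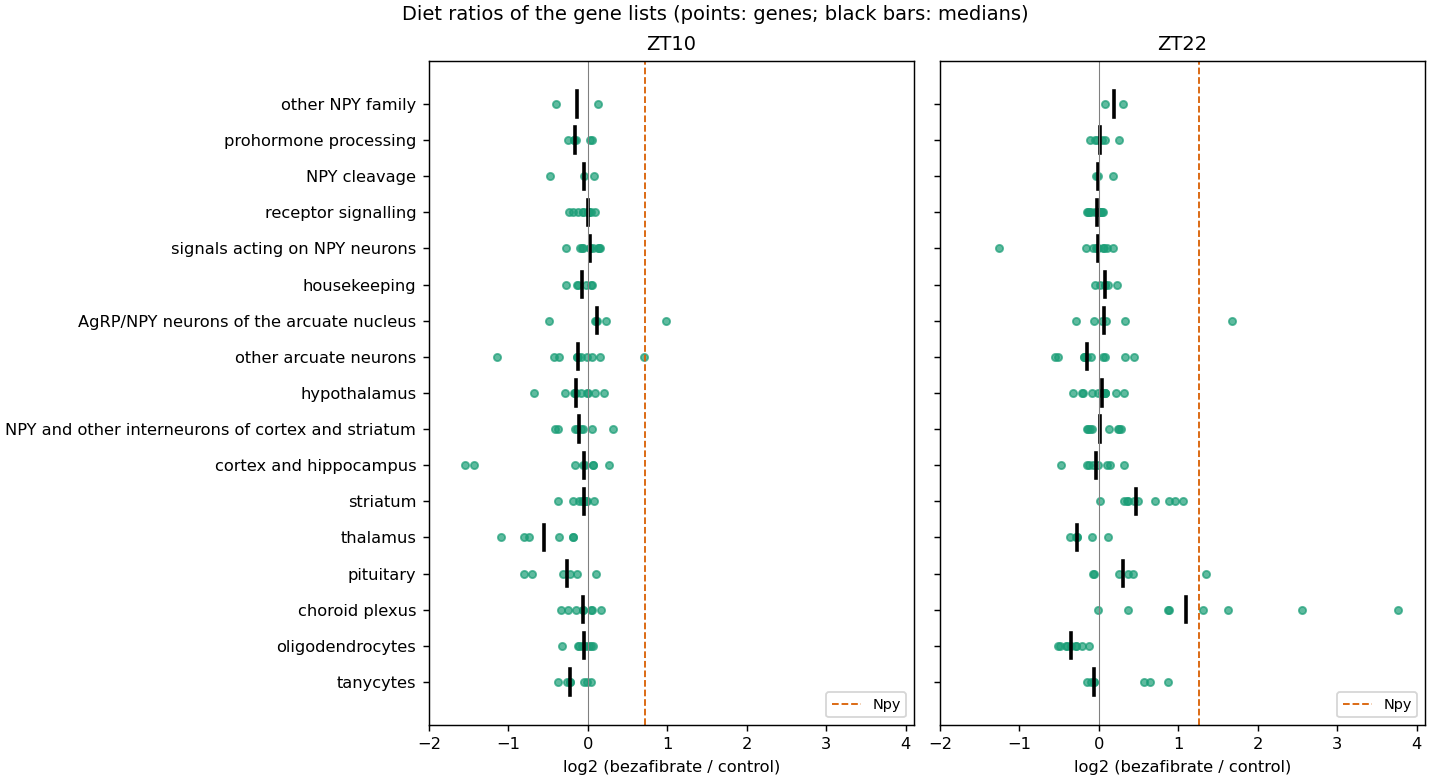
Log2 ratio of bezafibrate over control (x axis) at ZT10 (left) and ZT22 (right) for the members of each gene list above background on all 4 arrays (points), with list medians (black bars) and the Npy ratio (dashed orange line). The Npy ratio, 0.72 and 1.26, lies above every list median; the choroid plexus median at ZT22 (1.09) is the nearest.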

How the data were processed

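RNA pools of mouse hypothalamus were measured on 4 one-colour arrays, 1 per diet and time. Per the file headers, Feature Extraction 9.5.1.1 was the software with which the authors read the spots. As deposited, the processed signal is an intensity after background subtraction and spatial detrending, with low values replaced by a surrogate and no normalization across arrays. Beside it, the files gave its error, spot and background medians, and other marks of 0 or 1 for well above background, saturation and outliers. No spot was saturated, and 68.7% to 74.6% of 43379 features were well above background. The authors' deposited table of ratios, bezafibrate over control per the labels, was used as an alternative. The labels give 2 pools per deposited sample. The diet of each array file came from its name and was checked against the direction of that table, which correlated with the array ratios across spots at r of 0.996 (ZT10) and 0.995 (ZT22) after a constant log2 offset of -0.14 and 0.10. The number of arrays limits the precision.

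Here log2 of the processed signal minus the log2 of the 75th percentile of each array was used, control and outlier spots were left out (73 to 142 outliers per array), and spots of a probe were averaged. Where a gene had several probes, the one with the highest mean scaled signal stood for it. Of 41174 probes, 22951 were named by accession, 5850 by symbol and 3944 by an older symbol through RefSeq's table of GRCm38.p6, 2225 by the name in the files alone and 6204 were unnamed. A ratio was counted where both arrays were well above background, with a threshold of 1.5-fold. The error of a ratio combines the scanner errors of both spots. List sums and medians cover the genes above background on all 4 arrays. A sum is carried mostly by the brightest genes of its list. Counting was tested on simulated data with changes well past the threshold, which checks the code and not the noise of these arrays. Promoter windows are RefSeq's. Named genes are the members, the 10 closest profiles to Npy with a symbol other than a clone, numbered locus or odorant receptor, members of the family, processing and cleavage lists, and list genes at least 1.5-fold apart at both times or 2-fold at 1; other list genes are examples. The members and lists were chosen with earlier results of these data known. Alternatives were median scaling, quantile normalization, normexp (offset 50) on the spot median, spot median minus background, the deposited table, a mean signal of at least 100 in place of the background mark, a 2-fold threshold and, chosen after seeing the data, local scaling. R 4.3.3, limma 3.58.1, Python 3.11.15, pandas 2.3.3 and numpy 2.4.6 were used.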

Additional observations from a re-analysis of the deposited data

How the results depend on the processing

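Each of the 16 ratios of the 4 genes was recomputed under 5 or 6 alternatives, 88 values in all, and all 88 kept their sign and lay within 1 scanner error of the reported ratio. The Npy ratio lay between 1.55-fold and 1.68-fold at ZT10 and between 2.27-fold and 2.45-fold at ZT22. No receptor ratio reached 1.5-fold under any of the alternatives. All alternatives rescaled the arrays, so they could not show what the scaling itself contributed. Before scaling, the ZT22 signal was lower in the bezafibrate pool for Npy1r (155 against 163 units) and Npy2r (827 against 849). Their scaled ratios had the opposite sign. For time in control mice, median scaling gave the same values as the main setting, because these 2 arrays had equal 75th percentiles and equal medians. Averaging the probes of a gene gave no further value, because each gene had 1 probe. Leaving out a replicate was not possible with 1 array per group. No paired analysis was possible because each group had 1 array.

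The counts over all genes depended on the processing. The reported numbers of genes at least 1.5-fold higher and lower were 170 and 223, 209 and 308, 325 and 252, 412 and 337 for diet at ZT10, diet at ZT22, time in bezafibrate mice and time in control mice. Values that left a band of 1.5 times around these numbers were as follows. With normexp on the spot median, which shrinks ratios of dim probes, there were 41 higher and 59 lower for diet at ZT10, 78 higher and 63 lower for diet at ZT22, 124 higher and 43 lower for time in bezafibrate mice, 111 higher and 102 lower for time in control mice. With the spot median minus background there were 130 lower for diet at ZT10, 350 higher and 141 lower for diet at ZT22, 150 lower for time in bezafibrate mice, 264 higher for time in control mice. Among genes averaging 100 units or more, with no background requirement here, there were 46 higher and 56 lower for diet at ZT10, 77 higher and 63 lower for diet at ZT22, 129 higher and 62 lower for time in bezafibrate mice, 115 higher and 105 lower for time in control mice. When both arrays also had to be above background, there were 60 lower for diet at ZT22, and 128 higher and 60 lower for time in bezafibrate mice. At a 2-fold threshold there were 51 higher and 57 lower for diet at ZT10, 58 higher and 117 lower for diet at ZT22, 64 higher and 55 lower for time in bezafibrate mice, 150 higher and 108 lower for time in control mice. A single probe for each of the 4 genes and 1 array per pool limit what these values can show.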
